A study of Mus musculus with 9 samples.

Results

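Tfrc, which encodes the transferrin receptor, and 9 further genes of cellular iron handling were followed in mouse plantaris muscle during breathing of 8% oxygen. The set was chosen by gene symbol from knowledge of the pathway, with Tfrc taken because its own level was low in hypoxia in these libraries, so its values are a description here and carry no test. The deposited table lists 13722 genes, and each of the 10 symbols had a single row in it. The members are Tfrc, Slc11a2 and Steap3 for uptake, Slc40a1 for export, Fth1 and Ftl1 for storage, Aco1 and Ireb2 for regulation, Hfe2 for iron sensing and Hmox1 for heme breakdown. All 10 passed the filter on low values, a mean of at least 0.5 RPKM (reads scaled to exon length and to the library total) over all libraries, as did 13309 genes in all.

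The mice were C57BL/6J males 3 months old, with no transgene or mutation named. RNA from the plantaris, a fast hindlimb muscle, was sequenced from 3 control libraries at 0 h, 3 libraries after 2 h and 3 libraries after 6 h in 8% oxygen. A single 0 h control group serves both times, so time in hypoxia cannot be told apart from clock time or handling. Whether each library came from its own mouse is not stated, and a p-value here reflects only how far these libraries differ among themselves. In whole muscle, fewer cells of a type and less RNA per cell cannot be told apart.

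Cells take up iron mainly as transferrin bound to the transferrin receptor; the complex is internalised, the iron is reduced by STEAP3 in the endosome and DMT1, the product of Slc11a2, carries it into the cytosol. Spare iron is stored in ferritin shells built from the FTH1 and FTL1 subunits or leaves through ferroportin, the product of Slc40a1. When iron is scarce, the iron regulatory proteins IRP1 (Aco1) and IRP2 (Ireb2) bind RNA hairpins called iron-responsive elements. Binding in the 3′ untranslated region protects the Tfrc message from decay, and binding in the 5′ untranslated region blocks translation of ferritin and ferroportin. A message level can thus follow the iron regulatory proteins for Tfrc, whereas for ferritin and ferroportin they act mainly on the protein made. Skeletal muscle holds much iron in myoglobin and in the mitochondrial respiratory chain.

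The elements themselves are shown because they set the members apart by the side of the message on which they lie. They were read from GENCODE M21 transcripts on GRCm38, 5′ to 3′ on the message strand, with the hexaloop CAGTGN in capitals and the stem arms in lower case.
Tfrc 3′ element at chr16:32631219-32631247, plus strand: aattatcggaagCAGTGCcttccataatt
Tfrc 3′ element at chr16:32631598-32631626, plus strand: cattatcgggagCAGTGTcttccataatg
Tfrc 3′ element at chr16:32631663-32631691, plus strand: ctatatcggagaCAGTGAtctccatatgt
Tfrc 3′ element at chr16:32631710-32631738, plus strand: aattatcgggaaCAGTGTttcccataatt
Fth1 5′ element at chr19:9982732-9982760, plus strand: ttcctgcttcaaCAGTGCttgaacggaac
Ftl1 5′ element at chr7:45459779-45459807, minus strand: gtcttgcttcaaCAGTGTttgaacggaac
Slc40a1 5′ element at chr1:45925465-45925493, minus strand: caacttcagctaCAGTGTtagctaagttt
Each has the same plan, a loop on 5 base pairs, an unpaired C beneath them on the 5′ side and a lower stem in which at least 4 of 6 positions pair. Tfrc held 4 such elements and Fth1, Ftl1 and Slc40a1 held 1 each. Under these rules 4 of the 10 members had an element, against 24 of 21877 protein-coding genes (0.11%), while the letters CAGTGN alone occur in an untranslated region of 75.1% of them. The members were chosen from knowledge of the pathway, of which these elements are a known part. Their share thus follows from the choice and is not a result. No match was found for Slc11a2, Aco1, Ireb2, Hfe2, Steap3 or Hmox1, which says only that this pattern is not in their annotated untranslated regions. The rules are strict and can miss an element. They also found no match in Epas1, whose 5′ untranslated region is known to bind IRP1. A missing match, as for Slc11a2, therefore does not show that a member lacks an element.

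Tfrc transcription is also known to answer to hypoxia-inducible factors, which bind the core ACGTG, written here on either strand. Around the annotated start of Tfrc the RefSeq sequence of GRCm38.p6 holds that core within the 7 letters TACGTGC, in capitals, at chr16:32608873-32608919 on the plus strand: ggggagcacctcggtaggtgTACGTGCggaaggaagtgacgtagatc
The capitals begin 3 bases before the first of 2 annotated starts and 229 bases before the second. Of 32851 promoter windows, each running from 250 bases before to 50 bases after a start, 19.6% hold ACGTG and 0.773% hold TACGTGC. Promoter windows were given for 6 members (Tfrc, Fth1, Ftl1, Aco1, Ireb2 and Steap3). Only those of Tfrc hold either motif, a match of letters that does not show binding.

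Tfrc stood at 77.2, 43.5 and 41.4 RPKM in the 3 control libraries, at 13.56, 9.246 and 12.996 RPKM after 2 h and at 23.6, 29.5 and 29.6 RPKM after 6 h. Every 2 h library lay below every 6 h library, and every 6 h library lay below every control library. Mean Tfrc was 11.9 ± 2.35 RPKM after 2 h (SD, n = 3), or 22.1% of the control mean of 54.0 ± 20.1 RPKM (SD, n = 3). After 6 h it was 27.5 ± 3.46 RPKM (SD, n = 3), or 51.0% of the control mean and 2.31-fold the 2 h mean.

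On the log2(RPKM + 0.5) scale on which all genes were fitted with limma, the Tfrc difference was -2.09 ± 0.24 (SE) for 2 h against control, -0.91 ± 0.24 for 6 h against control and 1.18 ± 0.24 for 6 h against 2 h. Control replicate 1 carried the highest Tfrc value, and without it the difference was smallest, at -1.81 for 2 h and -0.62 for 6 h. Tfrc was covered by 6369 to 51747 recovered reads per library, so counting error is small beside the spread between libraries. The gene lies at chr16:32609006-32632880 on the plus strand in the coordinates of the file (mm9) and overlaps no other gene of the table. In the authors' deposited table Tfrc has a fold of -4.40 at 2 h and -1.89 at 6 h, where a negative fold means lower in hypoxia.

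**Figure D1:**
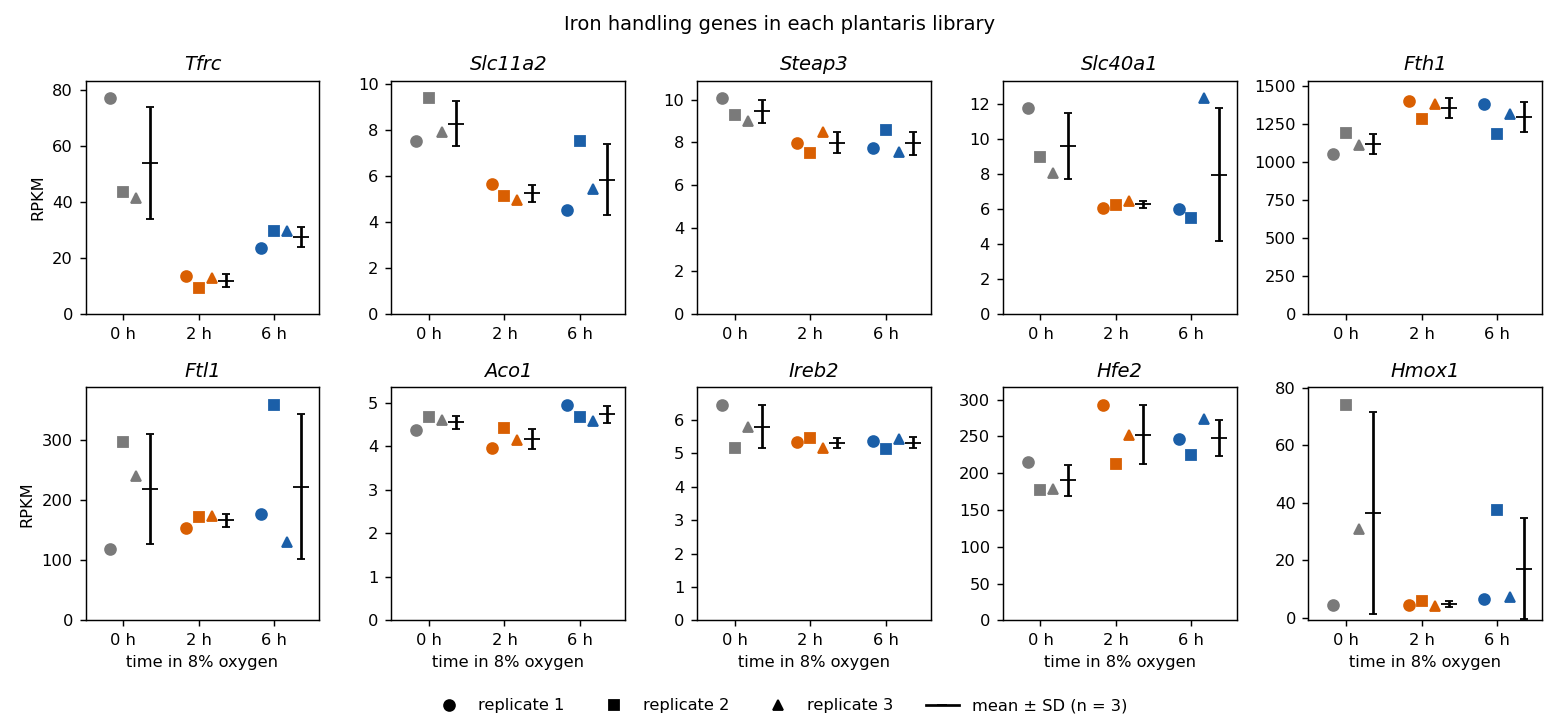
RPKM of the 10 iron handling genes (vertical axes, each from 0 or just below it) against hours in 8% oxygen, with a symbol for each library and the bar giving mean ± SD over 3 libraries. Tfrc is lowest at 2 h, between 9.25 and 13.6 RPKM, with the 6 h libraries between 23.6 and 29.6 and the controls at 41.4 or more, while Hmox1 and Ftl1 are high in control replicates 2 and 3 and in 6 h replicate 2.

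The members differed widely in level and in how far they varied. Fth1 was the most abundant, at a mean of 1258 RPKM over the 9 libraries (rank 36 of 13722 genes), followed by Hfe2 at 230.5 RPKM and Ftl1 at 202.0 RPKM. Tfrc averaged 31.2 RPKM and Hmox1 19.4 RPKM. Steap3, Slc40a1, Slc11a2, Ireb2 and Aco1 lay between 8.47 and 4.48 RPKM in that order. The highest library exceeded the lowest 8.35-fold for Tfrc and 18.1-fold for Hmox1, but only 1.25-fold for Aco1, 1.26-fold for Ireb2, 1.33-fold for Fth1 and 1.34-fold for Steap3.

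In 3 libraries from different groups, control replicates 2 and 3 and 6 h replicate 2, a shared set of genes was high. All 13 macrophage and 11 of 12 fibroblast and matrix markers were higher in each of these 3 than in any of the other 6. The same held for 5 of 8 markers of dividing cells, 1 of 4 of satellite cells and 11.1% of all genes tested. It held for 0 of 10 endothelial, 0 of 5 erythroid, 0 of 10 fibre and 0 of 7 slow fibre markers. The summed RPKM of the macrophage markers was 46.6, 182 and 206 in the control libraries, 70.3, 57.5 and 59.8 after 2 h and 65.9, 308 and 54.2 after 6 h. No listed macrophage marker was without reads. Fibre genes such as Ckm and Acta1 were abundant everywhere, with the 10 fibre markers summing to between 82853 and 98565 RPKM, so the labelled tissue was present in every library. Slow fibre markers summed to 619 to 631 RPKM in the controls, 424 to 535 RPKM after 2 h and 932, 1142 and 5467 RPKM after 6 h.

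Slc11a2, the divalent metal transporter that moves endosomal iron into the cytosol, had lower values in hypoxia that did not pass the test. It stood at 7.54, 9.38 and 7.91 RPKM in control libraries, at 5.66, 5.11 and 4.95 RPKM after 2 h and at 4.53, 7.53 and 5.43 RPKM after 6 h. Every hypoxic library lay below every control library, though 6 h replicate 2, at 7.53 RPKM, was within 0.01 of the lowest control. The difference was -0.61 ± 0.17 at 2 h (limma, adjusted p = 0.0999 over all genes) and -0.49 ± 0.17 at 6 h (limma, adjusted p = 0.162). With DESeq2 on recovered reads it passed at both times, with adjusted p = 0.00509 at 2 h and 0.0248 at 6 h, and limma without 6 h replicate 2 gave 0.0360 at each. Over all 22 alternatives the adjusted p ranged from 0.00509 to 0.368 at 2 h and from 0.00515 to 0.392 at 6 h. In a later annotation, GENCODE M21, Slc11a2 overlaps Gm5475 on the opposite strand, and the sources used here do not give whether counting used strand.

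Steap3, the endosomal ferrireductase, moved within a narrow band. It stood at 10.1, 9.28 and 9.004 RPKM in control libraries, at 7.98, 7.51 and 8.49 RPKM after 2 h and at 7.76, 8.58 and 7.54 RPKM after 6 h. All 6 hypoxic libraries lay below the 3 controls, with means of 84.6% and 84.2% of the control mean at 2 h and 6 h. The differences of -0.23 ± 0.09 at 2 h and -0.24 ± 0.09 at 6 h did not pass the test (limma, adjusted p = 0.209 and 0.210). With library weights Steap3 passed at 6 h (limma, adjusted p = 0.0372), as did 4113 of all 13309 genes.

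Slc40a1 encodes ferroportin, the only known iron exporter of mammalian cells. It stood at 11.7, 8.98 and 8.07 RPKM in control libraries, at 6.07, 6.25 and 6.45 RPKM after 2 h and at 6.01, 5.50 and 12.3 RPKM after 6 h. The 2 h libraries lay close together and below every control, with a difference of -0.56 ± 0.26 that did not pass the test (limma, adjusted p = 0.272). At 6 h the highest value of all 9 libraries stood beside the lowest, and the difference was -0.33 ± 0.26 (limma, adjusted p = 0.533). Without 6 h replicate 3, the library with 12.3 RPKM, it was -0.68. That library also had the highest slow fibre sum, 5467 RPKM, and the part of that in the Slc40a1 value was not tested.

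Fth1, the ferritin subunit with ferroxidase activity, stood at 1056, 1192 and 1113 RPKM in control libraries, at 1406, 1282 and 1381 RPKM after 2 h and at 1383, 1188 and 1316 RPKM after 6 h. All 2 h libraries lay above the controls, whereas 6 h replicate 2 lay among them. The mean was 1.21-fold the control mean at 2 h and 1.16-fold at 6 h. The log2 differences of 0.28 ± 0.09 and 0.21 ± 0.09 did not pass the test (limma, adjusted p = 0.148 at 2 h and 0.257 at 6 h). With library weights Fth1 passed at both (limma, adjusted p = 0.0253 and 0.0154), as did 3068 and 4113 of all 13309 genes.

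Ftl1, the light subunit that favours mineralisation of the stored iron, behaved otherwise. It stood at 118, 296 and 240.1 RPKM in control libraries, at 154, 171 and 173 RPKM after 2 h and at 177, 358 and 131 RPKM after 6 h. The high values were those of control replicates 2 and 3 and 6 h replicate 2, at 240.1 to 358 RPKM, against 118 to 177 RPKM in the other 6 libraries. The difference was -0.29 ± 0.40 at 2 h (limma, adjusted p = 0.714) and -0.01 ± 0.40 at 6 h (limma, adjusted p = 0.995). Without those 3 libraries, which leaves control replicate 1 alone in its group and assumes that it varies like the others, the difference had the opposite sign, at 0.49 for 2 h and 0.36 for 6 h.

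The ratio of Fth1 to Ftl1 RPKM varied with the library more than with the time. It was 8.94, 4.02 and 4.64 in the controls, 9.15, 7.48 and 7.99 after 2 h and 7.84, 3.32 and 10.1 after 6 h. The 3 ratios under 5 are those of the libraries with high macrophage markers, whose part in the ratio was not tested. Ferritin values are uncertain in another way, because GENCODE M21 lists 11 further entries named after Fth1 (5 of them pseudogenes) and 3 named after Ftl1 (2 of them pseudogenes) that could share reads. In the deposited table Ftl1 also overlaps AC151602.1 on its own strand.

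The messages of the iron regulatory proteins themselves were steady. Aco1, the cytosolic aconitase that becomes IRP1 when it loses its iron-sulfur cluster, ranged over all libraries from 3.95 to 4.95 RPKM, and Ireb2, which encodes IRP2, from 5.14 to 6.45 RPKM. Aco1 was at 3.95, 4.41 and 4.15 RPKM after 2 h and at 4.95, 4.66 and 4.58 RPKM after 6 h, so those 2 groups did not overlap. The difference of 0.16 ± 0.08 for 6 h against 2 h did not pass the test (limma, adjusted p = 0.357). Against control, Aco1 differed by -0.11 ± 0.08 at 2 h and 0.05 ± 0.08 at 6 h (limma, adjusted p = 0.470 and 0.774). Ireb2 differed from control by -0.11 ± 0.09 at both times (limma, adjusted p = 0.542 and 0.572). Both groups of hypoxic libraries overlapped the controls for both genes, and the ratio of Ireb2 to Aco1 stayed between 1.09 and 1.48. RNA does not show how much of either protein was in its RNA-binding form.

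Hfe2 encodes hemojuvelin, a co-receptor for bone morphogenetic proteins that in liver raises hepcidin, and it is strongly expressed in skeletal muscle. It stood at 215, 177 and 179 RPKM in control libraries, at 293, 213 and 252 RPKM after 2 h and at 247, 225 and 274 RPKM after 6 h. Every 6 h library lay above every control, and 2 h replicate 2, at 213 RPKM, lay just below control replicate 1. The mean was 1.33-fold the control mean at 2 h and 1.31-fold at 6 h. The log2 differences of 0.40 ± 0.14 and 0.38 ± 0.14 did not pass the test (limma, adjusted p = 0.160 at 2 h and 0.186 at 6 h). With library weights Hfe2 passed at both (limma, adjusted p = 0.0191 and 0.0076), as did 3068 and 4113 of all 13309 genes.

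Hmox1 encodes heme oxygenase 1, which frees iron from heme and which macrophages use when they clear red cells. It stood at 4.36, 74.3 and 30.8 RPKM in control libraries, at 4.28, 5.75 and 4.11 RPKM after 2 h and at 6.63, 37.5 and 7.03 RPKM after 6 h. The 3 libraries with high macrophage markers had 30.8 to 74.3 RPKM, and the other 6 had 4.11 to 7.03 RPKM. The difference from control was -2.12 ± 0.94 at 2 h (limma, adjusted p = 0.251) and -0.83 ± 0.94 at 6 h (limma, adjusted p = 0.679). Without the 3 libraries it was 0.09 at 2 h and 0.59 at 6 h, the opposite sign at each time. DESeq2 on recovered reads gave adjusted p = 0.0264 at 2 h, within a range of 0.0187 to 0.884 over the 22 alternatives. Every 6 h library lay above every 2 h library, with a difference of 1.30 ± 0.94 (limma, adjusted p = 0.517), which was 0.50 without the 3 libraries.

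**Figure D2:**
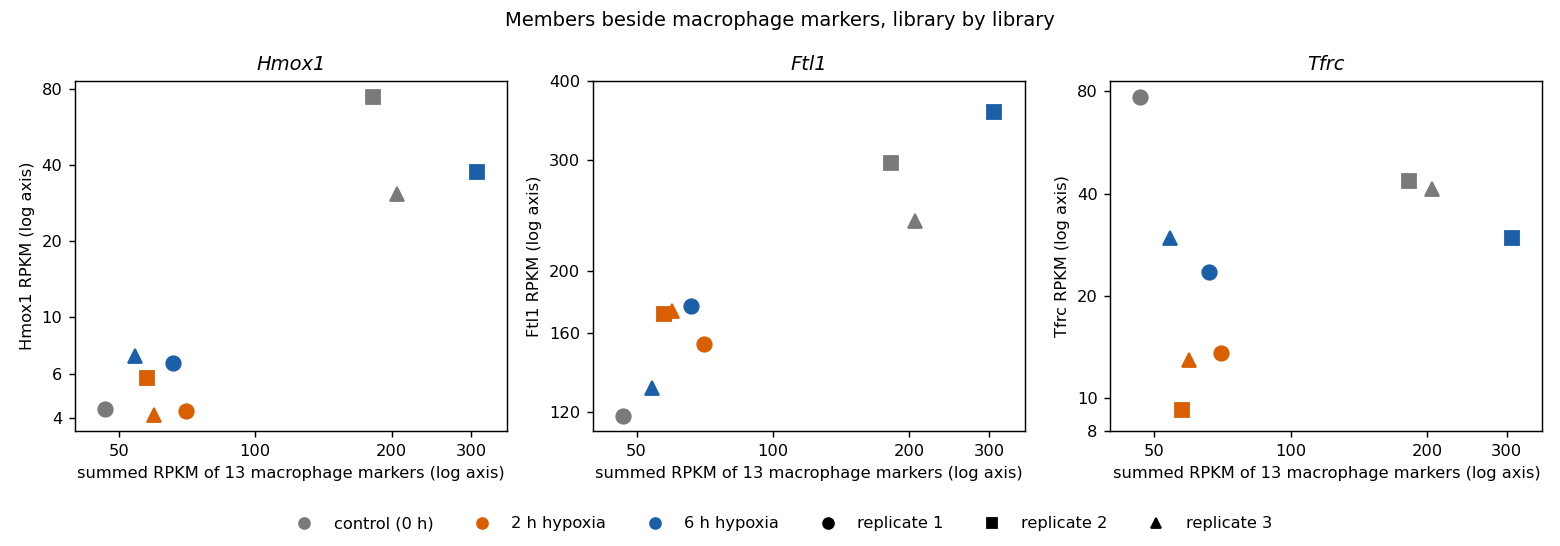
RPKM of Hmox1, Ftl1 and Tfrc (vertical log axes) against the summed RPKM of 13 macrophage markers (horizontal log axes), with 1 symbol per library, coloured by time in 8% oxygen. The 3 libraries with sums of 182 to 308 have the highest Hmox1 and Ftl1. Their Tfrc is 43.5 and 41.4 RPKM in control replicates 2 and 3 and 29.5 RPKM in 6 h replicate 2, with no 2 h library among them. In the other 6 libraries Tfrc is 9.25 to 13.6 RPKM at 2 h, 23.6 and 29.6 RPKM at 6 h and 77.2 RPKM in control replicate 1.

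Tfrc did not share that split. It was 29.5 to 43.5 RPKM in the 3 libraries and 9.25 to 77.2 RPKM in the other 6. With the 3 libraries left out, the Tfrc difference was -2.66 at 2 h and -1.53 at 6 h, each set against control replicate 1 alone, which has the highest Tfrc value. Matrix markers had their lowest means at 2 h, as Tfrc did: 8 of the 12 were lower in every 2 h library than in every control, against 12.6% of all genes. Their sum was 647, 1019 and 1132 RPKM in controls, 378, 332 and 438 RPKM after 2 h and 587, 1202 and 419 RPKM after 6 h. Unlike Tfrc, the sums at 2 h and 6 h overlapped, with 6 h replicate 3 below 2 h replicate 3. The part of these markers in the Tfrc values was not tested.

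Red cell precursors depend on the transferrin receptor more than other cells do. Only 5 of 13 erythroid markers have rows in the table, the 4 globin genes and Alas2, the erythroid enzyme of heme synthesis. Their summed RPKM was 1064, 2188 and 3183 in controls, 434.5, 2248 and 1767 after 2 h and 7040, 3677 and 2990 after 6 h. At 2 h the mean of all 5 was below control, by log2 differences of -0.78 to -0.64. All 5 were higher in every 6 h library than in every 2 h library, by 1.75 to 1.84, as were 13.7% of all genes. Tfrc had the same order in both comparisons. Against control all 5 had higher means at 6 h, by 1.04 to 1.19, whereas Tfrc was lower. By limma 0 of the 5 were called in each comparison. At an unadjusted p below 0.05 limma had 0 at 2 h, 1 at 6 h and 5 for 6 h against 2 h, against 20.1%, 19.1% and 16.4% of all genes. Globin levels ran close together, from 137.5 to 2240 RPKM for Hba-a1 and from 133.9 to 2184 RPKM for Hba-a2, so the 5 are not separate observations. The 6 h and control sums overlapped. In each group the library with the highest erythroid sum had the lowest Tfrc value. These were control replicate 3 at 41.4 RPKM, 2 h replicate 2 at 9.246 RPKM and 6 h replicate 1 at 23.6 RPKM. The part of these markers in the Tfrc values was not tested.

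Among the 9 members other than Tfrc, limma called 0 in each comparison at an adjusted p below 0.05. Over all 13309 genes the share called was 0.774% for 2 h against control, 1.6% for 6 h against control and 0.143% for 6 h against 2 h. At an unadjusted p below 0.05 limma had 4 of the 9 at 2 h and 4 of the 9 at 6 h, Slc11a2, Fth1, Hfe2 and Steap3 in both cases, against 20.1% and 19.1% of all genes, and 0 of the 9 for 6 h against 2 h, against 16.4%. By edgeR on recovered reads 0 of the 9 were called in each comparison, where it called 1.18%, 2.37% and 0.601% of all genes. DESeq2 called 2 of the 9 at 2 h (Slc11a2 and Hmox1, both lower) against 10.4% of all genes, 1 at 6 h (Slc11a2, lower) against 8.57%, and 0 for 6 h against 2 h against 6.71%.

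Counting libraries rather than fitting them, 4 of the 10 members were lower in every 2 h library than in every control (Tfrc, Slc11a2, Steap3 and Slc40a1), against 12.6% of all genes. Fth1 alone was higher in this way, against 14.9% of all genes. At 6 h, Tfrc, Slc11a2 and Steap3 were lower without overlap (8.99% of all genes) and Hfe2 was higher (16.9% of all genes). For 6 h against 2 h, Tfrc, Aco1 and Hmox1 were higher without overlap (13.7% of all genes) and 0 members were lower (8.97% of all genes). The median difference over the 10 members was -0.26 at 2 h and -0.17 at 6 h, beside -0.00029 and 0.05 over all genes. These counts include Tfrc, which was chosen on its values, and both comparisons share the same 3 controls.

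**Figure D3:**
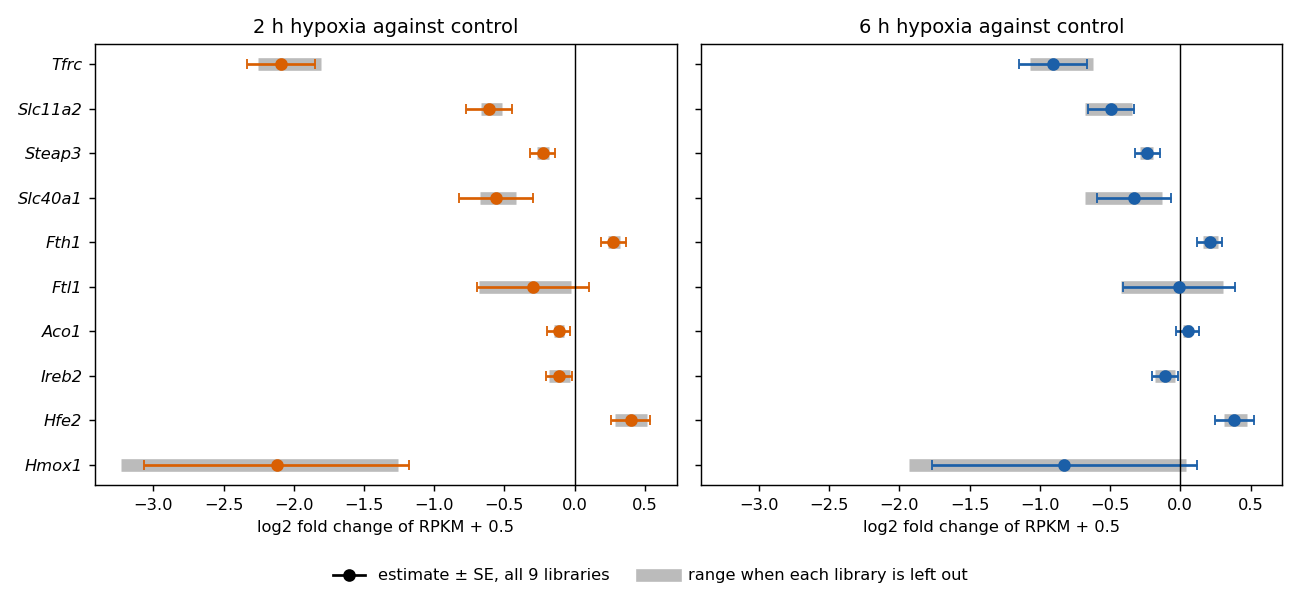
Log2 difference of RPKM + 0.5 (horizontal axes) for the 10 members at 2 h against control and at 6 h against control, with points for the limma estimate, bars for its SE and grey bands for the range when each library is left out in turn. Tfrc lies at -2.09 and -0.91, with bands from -2.25 to -1.81 and from -1.07 to -0.62, and the bands of Hmox1 and Ftl1 are the widest.

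By profile over the 9 libraries, the genes most like Tfrc were found among 5476 named genes with a mean of at least 5 RPKM, ranked by Pearson correlation of log2(RPKM + 0.5). They were Acsl1, a long-chain acyl-CoA synthetase (r = 0.95), Kcng4, a potassium channel subunit (r = 0.95), Mrpl3, a protein of the mitochondrial ribosome (r = 0.94), Ibtk, an inhibitor of Bruton tyrosine kinase (r = 0.94), and Cycs, cytochrome c (r = 0.94). The points of a correlation share the 9 libraries and the 3 time groups, so any gene with the same order of groups scores high. Acsl1 stood at 104, 94.95 and 91.5 RPKM in controls, at 55.4, 49.5 and 52.97 RPKM after 2 h and at 77.5, 84.1 and 93.8 RPKM after 6 h. Its 6 h libraries reached into the control range, as those of Tfrc did not.

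Cycs, which carries electrons in the respiratory chain through its heme iron, stood at 262, 215 and 225 RPKM in controls, at 128, 142 and 162 RPKM after 2 h and at 172, 193 and 215 RPKM after 6 h. Kcng4 was between 11.5 and 13.8 RPKM in controls, between 5.21 and 6.41 RPKM after 2 h and between 8.25 and 11.7 RPKM after 6 h. All 5 genes were lower in every 2 h library than in any control, as the ranking favours. Among the members, Steap3 was closest to Tfrc (r = 0.77, rank 148 of 5476), followed by Slc11a2 (r = 0.72), Slc40a1 (r = 0.67) and Ireb2 (r = 0.59). Fth1 had the lowest correlation of the members (r = -0.80), and Ftl1 was at 0.08. Aco1 was below the level set for this ranking.

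**Figure D4:**
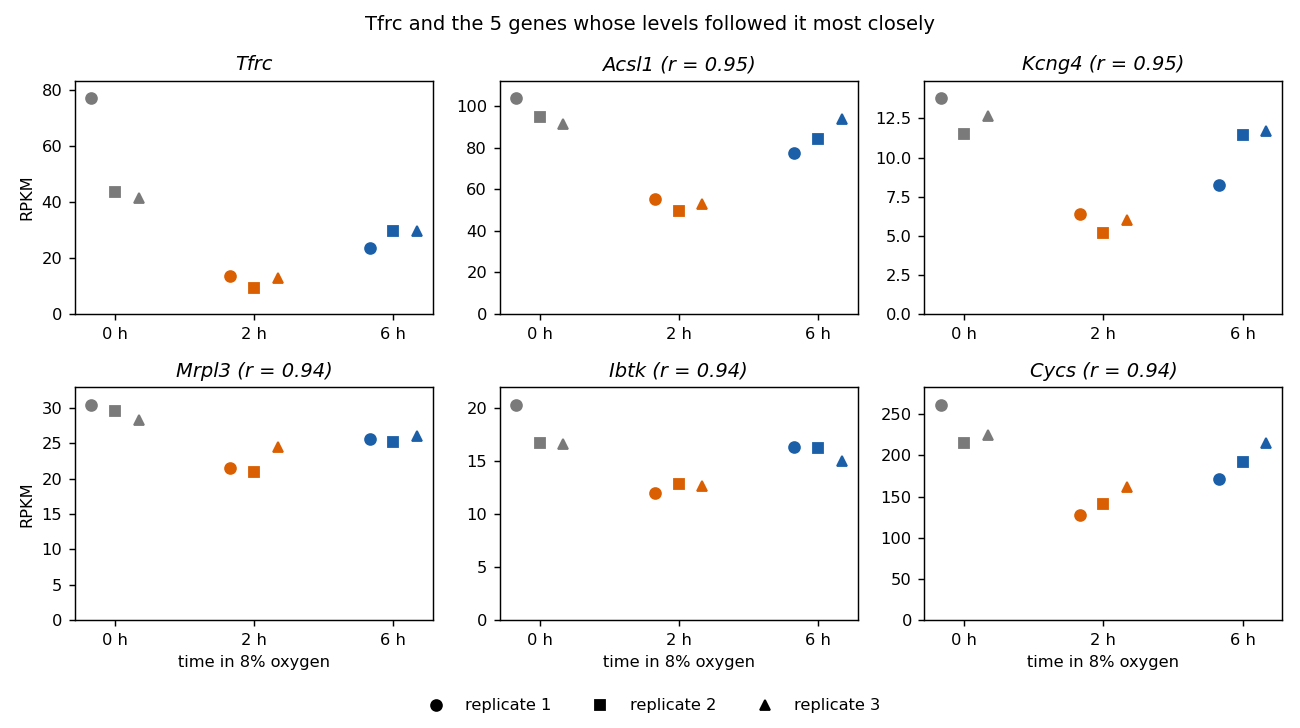
RPKM (vertical axes from 0) of Tfrc and the 5 genes with the highest correlation to it, by hours in 8% oxygen, with a symbol for each library. In each panel the 2 h libraries are lowest, and Tfrc runs from 9.25 to 77.2 RPKM.

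The wider iron pathway was read from 11 lists holding 100 genes that are not members, of which 83 were tested. At 2 h, 44 of the 83 had a higher mean fitted value than control and 39 a lower one, with a median difference of 0.03. At 6 h, 57 were higher and 26 lower, with a median of 0.08 beside 0.05 over all genes. Over all 13309 genes 50.1% were lower at 2 h and 42.6% at 6 h. With trimmed-mean (TMM) rescaling these shares were 52.8% and 50.9%. The same shares stand beside the list counts below. By limma 0 of the 83 were called at either time, with 21 (25.3%) at an unadjusted p below 0.05 at 2 h and 15 (18.1%) at 6 h, against 20.1% and 19.1% of all genes. On recovered reads, edgeR called 0 at 2 h and 3 at 6 h (Gclm, Txnrd1 and Ncoa4), against 1.18% and 2.37% of all genes. DESeq2 called 12 at 2 h and 7 at 6 h, against 10.4% and 8.57% of all genes. Limma with library weights, under which 3068 and 4113 of all 13309 genes were called, called 23 of the 83 at 2 h and 22 at 6 h. For 6 h against 2 h, limma called 0 with 13 at an unadjusted p below 0.05, against 16.4% of all genes, edgeR called 0 and DESeq2 called 4 (Nfe2l2, Mcoln1, Lcn2 and Ncoa4), against 6.71% of all genes.

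In mitochondrial iron and iron-sulfur cluster assembly, 19 of 20 genes were tested. Of these, 10 were higher and 9 lower at 2 h, and 16 higher and 3 lower at 6 h. Over all genes the share that was lower also went down, from 50.1% at 2 h to 42.6% at 6 h. Slc25a28 encodes mitoferrin 2, which brings iron into mitochondria. It stood at 10.8, 9.09 and 9.36 RPKM in controls, at 15.1, 14.7 and 13.9 RPKM after 2 h and at 13.6, 11.8 and 14.7 RPKM after 6 h. All 6 hypoxic libraries lay above the controls, and its adjusted p at 2 h was the smallest of the 83 without passing, with a difference of 0.56 ± 0.11 (limma, adjusted p = 0.0539). At 6 h the difference was 0.43 ± 0.11 (limma, adjusted p = 0.0858). It was called at both times with library weights and without 6 h replicate 2, and at 2 h also by DESeq2 and without control replicate 1. Iscu, the scaffold on which iron-sulfur clusters are built, had a mean of 142 RPKM after 6 h against 106.5 RPKM in controls, without overlap (0.40 ± 0.11, limma, adjusted p = 0.107). Hscb, a co-chaperone of cluster transfer, averaged 15.6 RPKM after 2 h against 11.8 RPKM in controls (0.38 ± 0.12, limma, adjusted p = 0.137).

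The list of NRF2 and BACH1, the factors that switch Hmox1 and the ferritin genes on and off, had the lowest median, -0.37 at each time, with 5 of 8 tested genes below control at 2 h and 6 of 8 at 6 h. Txnrd1, thioredoxin reductase 1, stood at 19.3, 30.9 and 22.4 RPKM in controls, at 11.8, 16.6 and 13.9 RPKM after 2 h and at 14.0, 13.2 and 12.4 RPKM after 6 h. Its differences of -0.75 ± 0.18 and -0.83 ± 0.18 did not pass the test (limma, adjusted p = 0.0762 at 2 h and 0.0572 at 6 h). It was called at both times by DESeq2 and with library weights, and at 6 h also by edgeR, with trimmed-mean (TMM) rescaling and without control replicate 1. Srxn1, sulfiredoxin, averaged 9.18 ± 0.32 RPKM after 2 h and 9.92 ± 2.02 RPKM after 6 h, against 28.7 ± 15.9 RPKM in controls (SD, n = 3 each). Its control values were 13.5, 45.2 and 27.3 RPKM, highest in the control libraries with high macrophage markers. In 6 h replicate 2, which also had high macrophage markers, Srxn1 was at 11.9 RPKM, below all 3 controls. For Srxn1 neither time passed (limma, adjusted p = 0.0818 at 2 h and 0.0983 at 6 h). It was called at both times by DESeq2, with library weights and without control replicate 1. Nqo1, another NRF2 target, had the opposite direction, with 10.5 RPKM after 2 h against 7.12 RPKM in controls (0.52 ± 0.20, limma, adjusted p = 0.197).

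Around ferritin, Ncoa4, the receptor that delivers ferritin for degradation, stood at 15.1, 13.4 and 16.03 RPKM in controls, at 15.1, 14.9 and 13.9 RPKM after 2 h and at 11.6, 11.4 and 11.6 RPKM after 6 h. The 6 h libraries lay below all others, with a difference from control of -0.35 ± 0.09 (limma, adjusted p = 0.0892), called by edgeR, DESeq2 and with library weights. The chaperones Pcbp1 and Pcbp2, which load iron into ferritin, differed from control on the log2 scale by -0.04 and 0.06 at 2 h and by -0.06 and -0.01 at 6 h. Cp, the plasma ferroxidase ceruloplasmin, was the only tested gene of the export list and averaged 2.07 RPKM after 2 h and 2.77 RPKM after 6 h, against 2.37 RPKM in controls.

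Genes that tune the iron regulatory proteins were all slightly higher at 2 h, 5 of 5, with differences from 0.11 to 0.39. At 6 h 5 of 5 were again higher, by 0.0063 to 0.20, with a median of 0.03 beside 0.05 over all genes. Limma called 0 at each time. Over all genes 50.1% were lower at 2 h and 42.6% at 6 h. Glrx3, a cytosolic glutaredoxin that handles iron-sulfur clusters, had the largest difference at 2 h, at 0.39 ± 0.13 (limma, adjusted p = 0.143). It stood at 157, 115 and 124 RPKM after 2 h against 104, 96.7 and 98.4 RPKM in controls, and at 2 h it was called with library weights. Fbxl5, the iron-sensing ubiquitin ligase subunit that removes IRP2, averaged 7.30 RPKM after 2 h against 6.61 RPKM in controls (0.14 ± 0.09, limma, adjusted p = 0.437).

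Along the hepcidin axis, Bmp6, the ligand that reports iron load in liver, averaged 5.55 ± 1.10 RPKM after 6 h against 3.33 ± 0.54 RPKM in controls (SD, n = 3 each), without overlap (0.65 ± 0.19, limma, adjusted p = 0.118). Id1, a target gene of that signal, stood at 7.12, 10.1 and 9.54 RPKM after 2 h against 4.55, 5.57 and 3.85 RPKM in controls (0.87 ± 0.22, limma, adjusted p = 0.0847). Smad1, its signal transducer, averaged 2.57 RPKM after 2 h against 4.80 RPKM in controls (-0.73 ± 0.23, limma, adjusted p = 0.138). At 2 h Id1 values were higher and Smad1 values lower than in controls, and limma called 0 of the 7 tested genes of the list. DESeq2 called Id1, Bmp6, Smad1 and Smad5 at 2 h and Bmp6 and Smad5 at 6 h, as did limma with library weights, which also called Id1 at 6 h.

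In the uptake list transferrin itself (Trf) overlapped between groups, at a mean of 13.03 RPKM after 2 h against 13.1 RPKM in controls. The largest differences of that list were carried by single libraries or low levels. Slc22a17, a receptor for the siderophore carrier lipocalin 2, was at 0.701, 15.5 and 1.12 RPKM after 2 h against 0.427, 0.457 and 0.486 RPKM in controls (1.72 ± 0.81, limma, adjusted p = 0.274), so 2 h replicate 2 makes the mean. Lcn2, lipocalin 2, was at 2.34, 1.62 and 2.02 RPKM after 2 h against 2.95, 10.2 and 7.03 RPKM in controls (-1.40 ± 0.55, limma, adjusted p = 0.206), and it reached 26.0 RPKM in 6 h replicate 2, another of the libraries with high macrophage markers.

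In heme synthesis, Alas1, the rate-limiting enzyme outside red cells, was at 33.0, 37.5 and 55.0 RPKM after 2 h against 69.2, 63.1 and 53.1 RPKM in controls (-0.58 ± 0.18, limma, adjusted p = 0.135). Alas2, the red cell enzyme, which also carries a 5′ iron-responsive element, averaged 1.73 RPKM after 2 h and 6.73 RPKM after 6 h, against 3.01 RPKM in controls, with overlap each time. Its highest value, 10.4 RPKM, was in 6 h replicate 1, the library with the highest globin levels. Epas1, whose 5′ untranslated region is known in human and mouse to bind IRP1, averaged 28.1 RPKM after 2 h and 33.1 RPKM after 6 h, against 24.5 RPKM in controls (limma, adjusted p = 0.558 and 0.266).

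In heme transport and breakdown, 2 of 8 tested genes were above control and 6 below at 2 h, and 6 above and 2 below at 6 h. Haptoglobin (Hp), which binds free hemoglobin, averaged 5.08 RPKM after 2 h and 14.2 RPKM after 6 h, against 8.33 RPKM in controls. Its macrophage receptor Cd163 averaged 2.08 RPKM after 2 h and 2.27 RPKM after 6 h, against 3.07 RPKM in controls, and both overlapped (limma, adjusted p between 0.437 and 0.663 for both genes and times). In cytosolic iron-sulfur cluster assembly, 6 of 8 were above control and 2 below at each time. The largest difference there was that of Nubp2, a scaffold of the pathway, at 8.22 RPKM after 6 h against 6.41 RPKM in controls (0.34 ± 0.14, limma, adjusted p = 0.239), and Narfl, which hands on the cluster, averaged 11.8 RPKM after 6 h against 10.6 RPKM in controls (0.14 ± 0.08, limma, adjusted p = 0.384). At 2 h the largest were those of Ciao1 at 0.15 and Ciapin1 at -0.13, with overlap. Of the regulators, Skp1a, a partner of Fbxl5, differed by 0.19 ± 0.12 at 2 h (limma, adjusted p = 0.402) and Bola2, a partner of Glrx3, by 0.20 ± 0.15 at 6 h (limma, adjusted p = 0.494). Uros, an enzyme of heme synthesis, was above every control in every 6 h library, at 13.07, 11.96 and 13.96 RPKM after 6 h against 11.4, 10.9 and 11.7 RPKM in controls (0.19 ± 0.15, limma, adjusted p = 0.536).

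**Figure D5:**
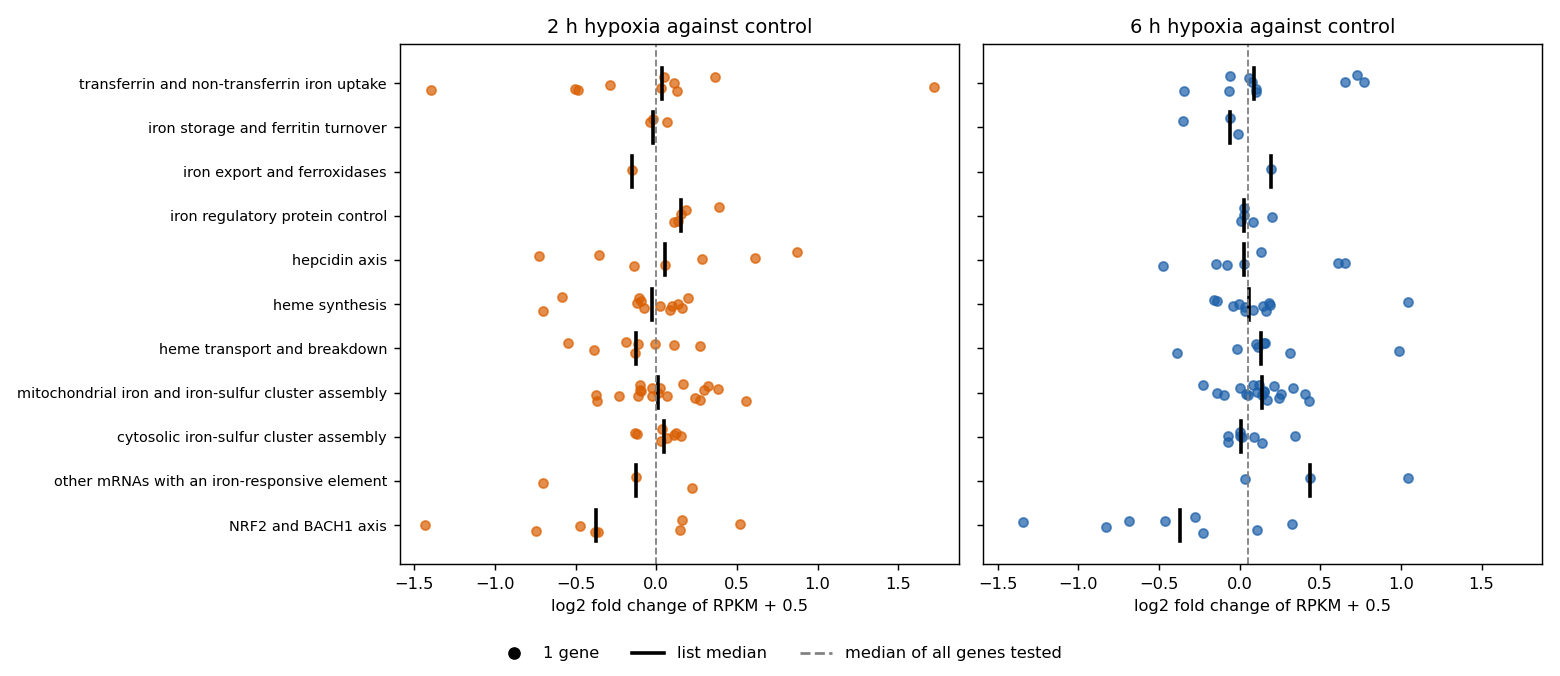
Log2 difference of RPKM + 0.5 (horizontal axes) for the 83 tested genes of 11 iron lists at 2 h against control and at 6 h against control, with a point for each gene, a black line for the list median and a dashed line for the median of all genes. List medians lie near the dashed line except for the NRF2 and BACH1 list, at -0.37, and the 3 genes with an iron-responsive element, at 0.44 after 6 h, and 0 of the 83 genes were called by limma.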

How the data were processed

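Per the labels' protocols, plantaris RNA from 9 libraries was made into paired-end TruSeq libraries. The submitters' processing notes name TopHat2 and Bowtie2 beside FastQC, SAMtools and bedtools (no versions) and build mm9. Neither the counter nor its handling of strand is given in the sources used here. Values per library, as deposited by the authors, are RPKM. The deposited table also holds each gene's largest raw read count, the authors' fold against control as a signed score, and the authors' p-value, raw and adjusted, from a test that is not stated.

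Whole reads were recovered from the RPKM steps: 99.6% of the 40355 values below 500 reads came out whole within 0.1 read. Library totals ran from 72706716 (6 h replicate 3) to 137097898 reads (2 h replicate 3). Groups and replicate numbers came from the sample titles. The 13309 genes with a mean of at least 0.5 RPKM were fitted on log2(RPKM + 0.5) with limma 3.58.1 (R 4.3.3), with a mean-variance trend and group means over all libraries. P-values were adjusted by the Benjamini-Hochberg method over all tested genes of a comparison and called below 0.05. This scale understates the change of low genes. Recovered reads of the same genes were also tested with edgeR 4.0.16 (quasi-likelihood; 157 and 316 genes called at 2 h and 6 h against control, 80 between the times) and DESeq2 1.42.0 (1382, 1141 and 893).

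Members, lists and alternatives were chosen with earlier results of these data known. From each wider list the text names the 2 genes with the largest difference from control at each time among those with a mean of at least 1 RPKM. Fbxl5, Trf, Nqo1 and the genes that other tools called were named after their values were seen. Elements were searched in GENCODE M21 untranslated regions (GRCm38) and motifs in RefSeq promoters (GRCm38.p6); gene coordinates are those of the file. The 22 alternatives are given in the closing section.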

Additional observations from a re-analysis of the deposited data

How the results depend on the processing

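The number of genes called depended strongly on the settings. The Tfrc difference kept its sign in all 22 alternatives, but these refit the libraries on whose values Tfrc was chosen. That sign is thus a description and no support. For 2 h against control (103 called) the count was 29 without the mean-variance trend, 3068 with library weights, 0 without control replicates 2 and 3 and 6 h replicate 2 together (1551 at an unadjusted p below 0.05), 6 with a term for these libraries, 157 with edgeR and 1382 with DESeq2. Leaving out each library gave 0 to 400, with 0 without control replicate 2, control replicate 3 or 2 h replicate 2 and 400 without 6 h replicate 2. For 6 h against control (213 called) it was 4113 with library weights, 73 with only those groups fitted, 0 without the 3 libraries (1649 unadjusted), 374 with the term and 1141 with DESeq2, and 10 to 420 leaving out each library. For 6 h against 2 h (19 called) it was 11 with TMM rescaling, 6 without the trend, 119 with library weights, 3 with only those groups, 5 without the 3 libraries, 99 with the term, 80 with edgeR, 893 with DESeq2 and 0 to 9 leaving out each library. With the replicate block the counts were 1, 43 and 2; same-numbered libraries share only a number (correlations of their deviations from -0.33 to 0.49), and the block called 0 of the 9 members other than Tfrc. TMM split the calls into 53 higher and 63 lower at 2 h and 100 higher and 166 lower at 6 h, against 63 and 40, and 133 and 80, as deposited.

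Tfrc ranged from -2.25 to -1.81 at 2 h, from -1.07 to -0.62 at 6 h and from 1.02 to 1.29 for 6 h against 2 h when each library was left out, and was -2.66 at 2 h and -1.53 at 6 h without the 3 libraries. Without them and with the term, Ftl1 was 0.49 and 0.51 at 2 h, 0.36 and 0.39 at 6 h, and -0.12 and -0.11 for 6 h against 2 h; Hmox1 was 0.087 at 2 h without them and 0.59 and 0.12 at 6 h; Slc11a2 was -0.070 and -0.0077 and Hfe2 0.054 and 0.064 for 6 h against 2 h. Aco1 was -0.0034 at 6 h with TMM. For 6 h against 2 h, Ireb2 was -0.036 with TMM, -0.028 with edgeR and -0.041 with DESeq2, and library weights gave -0.037 for Slc11a2 and 0.046 for Hfe2. Leaving out each library also turned Ftl1 (-0.42 to 0.31) and Hmox1 (-1.93 to 0.040) at 6 h and, for 6 h against 2 h, Slc11a2 (-0.070 to 0.27), Slc40a1 (-0.11 to 0.44), Ftl1 (-0.12 to 0.60), Ireb2 (-0.019 to 0.024), Hfe2 (-0.13 to 0.098) and Steap3 (-0.059 to 0.035). Of the 9 members other than Tfrc, 3 alternatives called any at 2 h and 3 at 6 h: library weights (4 and 5), DESeq2 (2 and 1) and limma without 6 h replicate 2 (1 each time). Library weights called Slc11a2, Fth1, Hfe2 and Hmox1 at both times and Steap3 at 6 h, where they called 3068 and 4113 of all 13309 genes. The causes were not tested.

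The members had at least 775 recovered reads in every library, so the spread between 3 libraries a group, rather than depth, limits these comparisons.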
